A study of Mus musculus with 8 samples.

Results

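The RNAs recovered with the poly(A) binding protein PABP1 from mouse embryonic stem (ES) cells were compared with the input RNA of the same kind of lysate. The members are the 2 arrays of PABP1 immunoprecipitation (IP) and the 3 arrays of input, chosen by their titles, which makes 5 of the 8 arrays of the study. The other 3 arrays are IPs with an antibody against GFP and serve here as a second IP from the same cell line. The labels do not state whether the GFP of these cells is fused to DAZL, so RNA bound by DAZL and RNA carried along by any IP cannot be told apart in them, and a difference between the IPs is a difference between 2 IPs and not one from a blank. Every group came from transgenic Dazl-GFP ES cells kept on irradiated mouse embryonic fibroblast feeders in medium with 15% serum, leukemia inhibitory factor (LIF) and the 2i inhibitors PD0325901 (1 µM, against MEK) and CHIR99021 (3 µM, against GSK3β). The inputs saw no antibody. The PABP1 IPs used an antibody against PABP1 under native conditions, so nothing was crosslinked, and the GFP IPs were made in the same way with an antibody against GFP. RNA was extracted with TRIZOL and hybridised in 1 colour to Agilent mouse expression arrays. All groups are 1 cell line, the labels do not say whether the replicates were separate cultures, so p-values measure a spread that may be technical, and a control IP with an unrelated antibody was not analysed here. RNA bound to PABP1 and RNA held by beads or antibody therefore cannot be told apart. For many of the classes described, the PABP1 IP was also set against the GFP IP.

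PABP1, encoded by Pabpc1, is the main cytoplasmic protein that coats the poly(A) tail of messenger RNA. It binds the scaffold eIF4G at the cap, which brings both ends of the message together during translation, and it takes part in deadenylation through the deadenylase complexes PAN and CCR4-NOT. Most messages carry a tail when they leave the nucleus, where another protein, PABPN1, coats it. Replication-dependent histone messages end in a stem-loop in place of a tail, and Malat1 ends in a triple helix after its 3′ end is cut. The length of the tail was not measured here.

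Levels are log2 processed intensities minus the array's 75th percentile, and a difference is PABP1 IP minus input on that log2 scale, so 1 is a doubling relative to that percentile. Errors after ± are standard errors from limma's fit, with n = 2 PABP1 IPs and n = 3 inputs, and a gene is called higher or lower where limma's Benjamini-Hochberg adjusted p is under 0.05 over the 14682 genes tested. Of these genes, 8746 passed (59.6%), with 5033 higher (34.3%) and 3713 lower (25.3%) in the PABP1 IP, and the 2 PABP1 IPs lay wholly above or below the 3 inputs in 10394 genes (70.8%). These shares are the background against which each class is read. The median difference of all tested genes was 0.24, and 3478 genes were higher and 2370 lower by more than 1, while beyond 3 the order turned, with 68 higher and 284 lower. The share of higher genes among those called was 57.5%, and it was 47.5% with the percentile taken over detected probes, 51.4% with quantile normalization, 61.4% with scaling to the median and 72.1% after normexp background correction. These choices moved the median of all genes to 0.0051, 0.12, 0.32 and −0.030, so class medians are read against the median of all genes and not against 0. Arrays lay on 2 slides, with inputs 1 and 2 and PABP1 IP 1 on slide 1 and input 3 and PABP1 IP 2 on slide 2. Arrays of different groups deviated from their group means together when they shared a slide (correlations across genes of 0.44 to 0.77), so the medians of classes with a direction are also given within each slide. The share of probes well above background was 41.5% to 49.1% in the inputs and 48.2% and 52.6% in the PABP1 IPs. A gene could enter the test through the PABP1 IPs alone, as 2019 did, and such a gene was high there by selection. Another 392 entered through the inputs and not the PABP1 IPs, and these were low in the PABP1 IP by selection.

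Against the GFP IP, 6985 genes were higher (47.6%) and 3465 lower (23.6%) in the PABP1 IP. This split of 66.8% higher among the calls was 53.2% with scaling to the median, 54.1% with the percentile over detected probes and 57.0% with quantile normalization. Both IPs share the inputs in their differences from input, so those are printed side by side, and the direct comparison of the IPs is the test. Of 53 classes of mRNA, 17 had a median more than 0.5 above that of all genes and 17 a median more than 0.5 below, and classes closer than that are given with no direction. The highest and lowest members of a class are those among its members measured on all 5 arrays, unless stated otherwise. A gene's difference is that of the probe that stands for it, and its other probes can differ in size. Words on the size of a protein are background, are given for some members and not for others, and show no pattern. Protein size was not set against recovery.

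**Figure D1:**
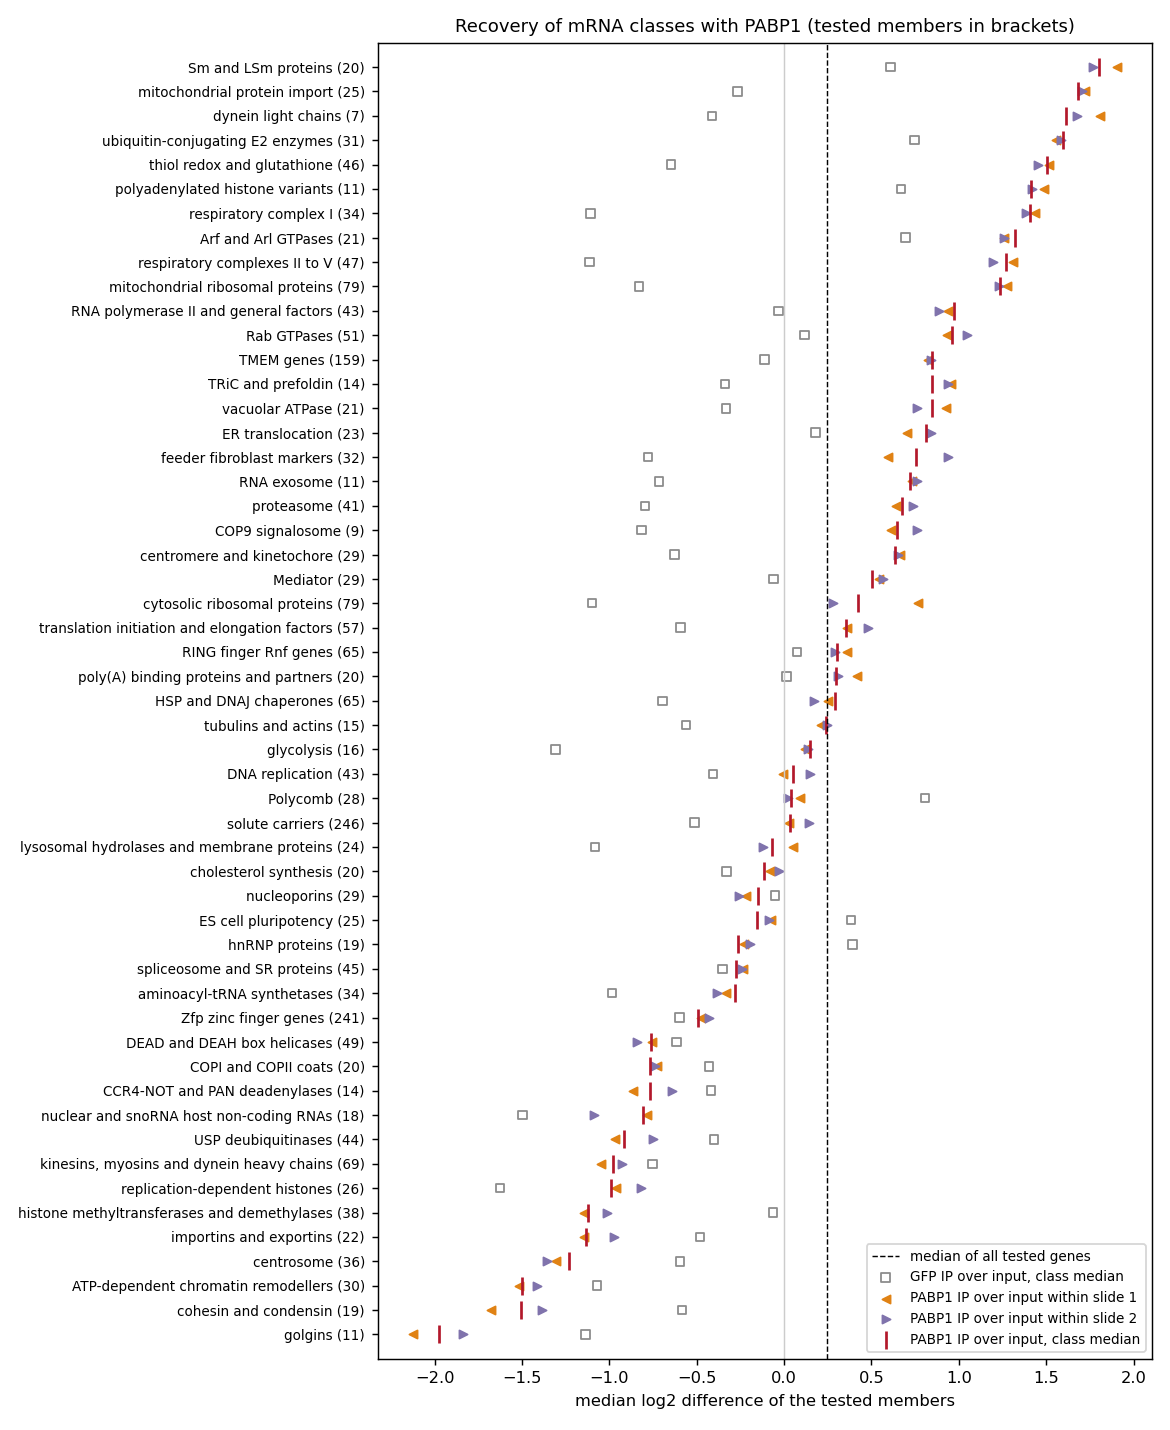
Median log2 difference from input of the tested members of 53 classes in the PABP1 IP (red bars), within slide 1 and slide 2 (triangles) and in the GFP IP (open squares), with the median of all tested genes at 0.24 as a dashed line. Sm and LSm proteins stand at 1.80 and golgins at −1.98, and both slides put these classes on the same side of the dashed line.

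Among nuclear and snoRNA host non-coding RNAs, some were strongly lower in the PABP1 IP and others higher. Malat1, an abundant RNA of nuclear speckles, had levels of 4.32, 4.81 and 4.22 in the inputs and −4.62 and −4.87 in the PABP1 IPs. It was not well above background on either PABP1 IP, so its level was at least 354-fold lower there than in the inputs (adjusted p = 1.41e-05). Its other 2 probes gave differences of −5.42 and −4.40. Neat1, the scaffold of paraspeckles, stood at 4.87, 4.89 and 4.78 in the inputs and 2.11 and 2.20 in the PABP1 IPs, a difference of −2.69 ± 0.14 (adjusted p = 1.93e-05). Snhg20, which is named as a host of small nucleolar RNAs (snoRNAs), had levels of 6.30, 6.48 and 6.46 in the inputs and 3.72 and 3.92 in the PABP1 IPs, a difference of −2.59 ± 0.15 (adjusted p = 2.16e-05). In these 3 RNAs every PABP1 IP lay below every input, and the gap was many times the spread within a group. Among all tested genes 70.8% did not overlap either. Neat1 and Snhg20 were picked as the lowest of their list on all 5 arrays, so their separation adds no support. Malat1 was at least 11.2-fold lower than in the GFP IP, where it was itself at −4.98 from input. Against the GFP IP the differences were −0.44 (adjusted p = 0.025) for Neat1 and −0.53 (adjusted p = 0.0139) for Snhg20.

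Other snoRNA hosts were higher with the probe that stands for the gene. Gas5, whose introns release snoRNAs and whose spliced RNA reaches the cytoplasm, had levels of 7.35, 7.33 and 7.46 in the inputs and 8.91 and 8.85 in the PABP1 IPs, a difference of 1.50 ± 0.11 (adjusted p = 5.15e-05). Snhg5, of the same kind, stood at 5.98, 6.10 and 5.94 in the inputs and 7.26 and 7.02 in the PABP1 IPs, a difference of 1.13 ± 0.14 (adjusted p = 4.07e-04). Each has a second probe of the opposite sign, at −1.10 for Gas5 and −2.80 for Snhg5, and the mean over the probes of Snhg5 was called the other way, at −0.83 (adjusted p = 0.00176). Gas5 and Snhg5 were picked as the highest of the list on all 5 arrays. With the probe that stands for the gene, their levels in the PABP1 IPs lay above all inputs. Both were higher than in the GFP IP, by 2.09 (adjusted p = 1.09e-05) and 2.25 (adjusted p = 1.55e-05). In the list of 18 nuclear and snoRNA host RNAs tested, 6 were higher and 9 lower, with a median of −0.81 (−0.78 within slide 1 and −1.09 within slide 2). Its side depended on the filter, since the 11 members measured on all 5 arrays had a median of 0.81 and the list lay 0.33 above the median of all genes when detection on all 8 arrays was required. Named after their values were seen, Snhg16, Snhg17 and Snhg18 were higher by 0.81, 0.97 and 1.09, and the imprinted H19 by 1.04. Also named after their values were seen, the imprinted Meg3 was lower by 2.38 with a second probe at −2.57, and Rmrp, the RNA of RNase MRP, by 1.20. Snhg14, Snhg11 and Mirg were well above background on all inputs and on no PABP1 IP, at bounds of at least 22.7-fold, 29.8-fold and 9.01-fold lower, although the other probes of Snhg11 ran from −4.62 to 0.18.

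Relative to input, replication-dependent histone messages were more often lower than higher, and messages of the tailed histone variants mostly higher. Of 26 tested replication-dependent histone genes, 6 were higher and 11 lower, with a median of −0.99 (−0.96 within slide 1 and −0.82 within slide 2), while of 11 variants 8 were higher and 1 lower, with a median of 1.41 (1.48 within slide 1 and 1.42 within slide 2). Of these variants 2 entered through the PABP1 IPs alone, and of the 9 measured on all 5 arrays 6 were higher, with a median of 1.15. Linker histone H1f5 had levels of 2.94, 2.93 and 3.02 in the inputs and 0.027 and −0.092 in the PABP1 IPs, a difference of −2.995 ± 0.12 (adjusted p = 1.40e-05). Linker histone H1f3 stood at 2.76, 2.66 and 2.20 in the inputs and 0.36 and −0.25 in the PABP1 IPs, a difference of −2.48 ± 0.25 (adjusted p = 1.50e-04). The core histone H2ac4 had levels of 4.67, 4.82 and 4.29 in the inputs and 3.03 and 2.29 in the PABP1 IPs, a difference of −1.93 ± 0.29 (adjusted p = 0.00106). For these 3 genes, picked from the lower ones, both PABP1 IPs lay below the lowest input. Among all tested genes 70.8% did not overlap. The replacement variant H2az1 stood at 7.41, 7.20 and 7.45 in the inputs and 9.24 and 9.28 in the PABP1 IPs, a difference of 1.91 ± 0.18 (adjusted p = 1.14e-04). The linker variant H1f0, which is made outside S phase, had levels of 2.11, 1.92 and 1.54 in the inputs and 4.07 and 3.69 in the PABP1 IPs, a difference of 2.02 ± 0.21 (adjusted p = 1.87e-04). H2az1 and H1f0 were picked as the highest variants measured on all 5 arrays, and for them both PABP1 IPs lay above the highest input.

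**Figure D2:**
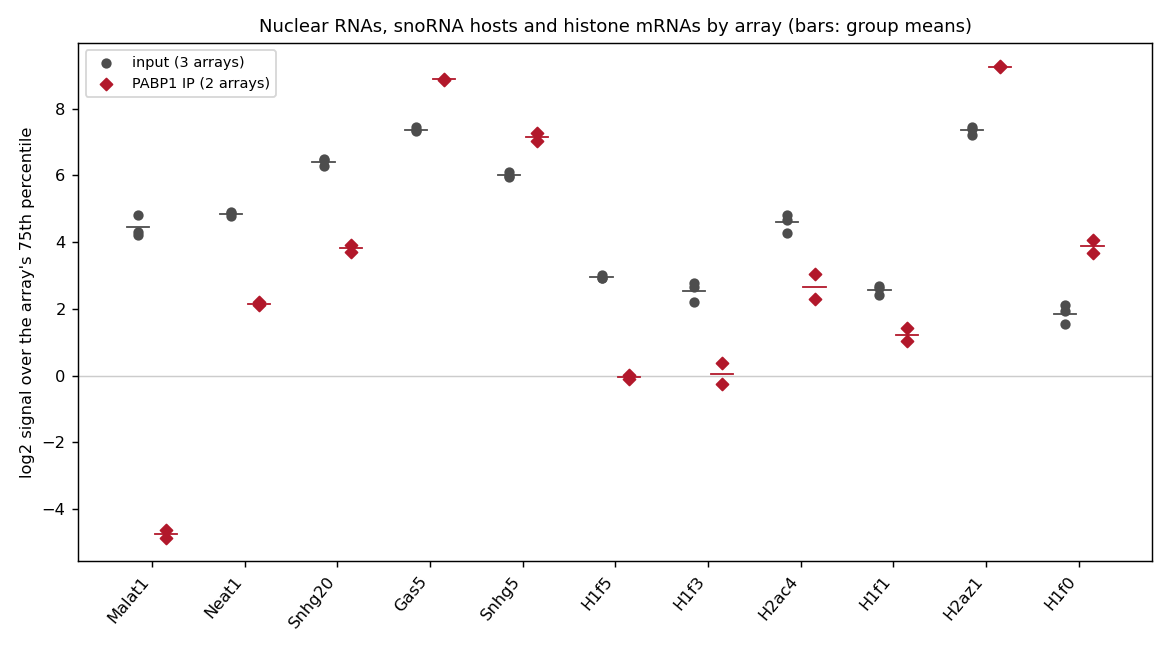
Level on each array, in log2 units relative to the 75th percentile of that array, for nuclear and snoRNA host RNAs and for histone messages, with inputs as grey circles, PABP1 IPs as red diamonds and bars at the group means. The inputs and PABP1 IPs of these 11 RNAs, picked from longer lists, do not overlap, and neither do those of 70.8% of all tested genes. Other histone genes, such as H2ac1 and the variant H2aj, did overlap. Malat1 falls to between −4.87 and −4.62 in the PABP1 IPs.

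The histone list was not uniform. Besides H1f5, H1f3 and H2ac4, those lower were H1f4 (−3.02), H2ac15 (−1.75), H2ac13 (−1.74), H1f1 (−1.35), H4c1 (−1.29), H4c6 (−1.18), H4c4 (−1.16) and H4c14 (−1.11). The 6 that were higher were H2ac8 (1.44), H2bc4 (1.36), H4c9 (1.32), H3c14 (1.07), H1f2 (1.01) and H3c4 (0.83). The remaining 9 lay between −1.05 for H2ac1 and 0.37 for H2bc14 and did not pass. H2ac8 was well above background on 1 input and on both PABP1 IPs and entered through the latter. Genes of this family are near-identical copies in clusters, so a probe may read several of them and the value of a single copy is uncertain. Among the variants, the lower one was H1f10, at −3.48 ± 1.05 (adjusted p = 0.0235), whose second probe stood at 1.14. Variant messages were high in the GFP IP too, at 0.67 from input. Set directly against that IP, 4 of the 11 variants were higher and 2 lower in the PABP1 IP, beside 47.6% and 23.6% of all genes. Between the IPs the median difference was 0.53 for variants and 0.55 for replication-dependent histones, beside 0.68 for all genes. The contrast between these lists was therefore seen against input and not between the IPs. The GFP IP was also low for replication-dependent histones, with a median of −1.63 from input, and against it 11 of these genes were higher and 3 lower in the PABP1 IP. The lower ones were H1f5, at −1.30 (adjusted p = 6.69e-05), H1f4, at −1.33 (adjusted p = 0.0401), and H2bc21, which entered the test through the GFP IPs alone and was not well above background on either PABP1 IP, while H1f3 was at −0.38 (adjusted p = 0.2) and H2ac4 at −0.33 (adjusted p = 0.328).

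Single genes were ranked by the smallest difference among their probes, since 3169 genes had 2 or more probes measured on all 5 arrays and 1309 of these passed the same way with every probe (758 higher and 551 lower). Other probes of called genes shared the sign of the call in 82.0% of 2637 cases. The 12 highest by this rank are given first, with the difference of the probe that stands for the gene. Plp2, a small membrane protein of the endoplasmic reticulum, had levels of 3.01, 3.21 and 2.61 in the inputs and 6.31 and 5.97 in the PABP1 IPs, a difference of 3.20 ± 0.22 (adjusted p = 3.96e-05). Ap3s1, the small subunit of the AP-3 vesicle adaptor, stood at 0.82, 0.73 and 0.25 in the inputs and 3.83 and 3.52 in the PABP1 IPs, a difference of 3.07 ± 0.23 (adjusted p = 5.26e-05). Arl6, a small GTPase of cilia, had a difference of 3.17, Snrpn, a core protein of small nuclear ribonucleoproteins, 3.06, and Trappc6b, a subunit of the TRAPP vesicle tether, 3.05. The others were Gnas (3.12), Cibar1 (3.02), Zfp706 (2.99), the transcription factor subunit Taf9 (2.98), the ubiquitin-like autophagy protein Gabarap (2.73), Cmtm4 (2.72) and the synaptic scaffold partner Cript (2.71). In all 12 the PABP1 IPs lay above every input, but the genes were chosen for passing with every probe, so this adds no support. Among all tested genes 70.8% did not overlap.

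The 12 lowest by this rank follow, also with the difference of the probe that stands for the gene. Ankrd26 ranked lowest, and the smallest difference among the probes was −2.87 for Nemf and −2.79 for Golga4. Nemf, a factor of ribosome quality control, had levels of 4.81, 4.69 and 3.89 in the inputs and −0.32 and −0.57 in the PABP1 IPs, a difference of −4.90 ± 0.39 (adjusted p = 5.97e-05). Tenm4, a teneurin of the cell surface, stood at 3.57, 3.87 and 3.45 in the inputs and −0.38 and −0.79 in the PABP1 IPs, a difference of −4.21 ± 0.29 (adjusted p = 3.83e-05). Golga4, a coiled-coil tether of the Golgi apparatus, had a difference of −4.53, Ankrd26, a coiled-coil protein with ankyrin repeats, −4.32, and Zgrf1, a helicase, −4.06. The nucleolar deubiquitinase Usp36 (−3.29), the Pax partner Paxbp1 (−3.18), the splicing factor Rbm25 (−3.08), the zinc finger factor Zfp148 (−3.06) and the surface protein Prtg (−2.82) followed. Firre, a long non-coding RNA kept in the nucleus, was at −3.07, and the remaining entry is a transcript the array does not name. Both PABP1 IPs lay below every input in each of these, which were chosen in the same way.

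**Figure D3:**
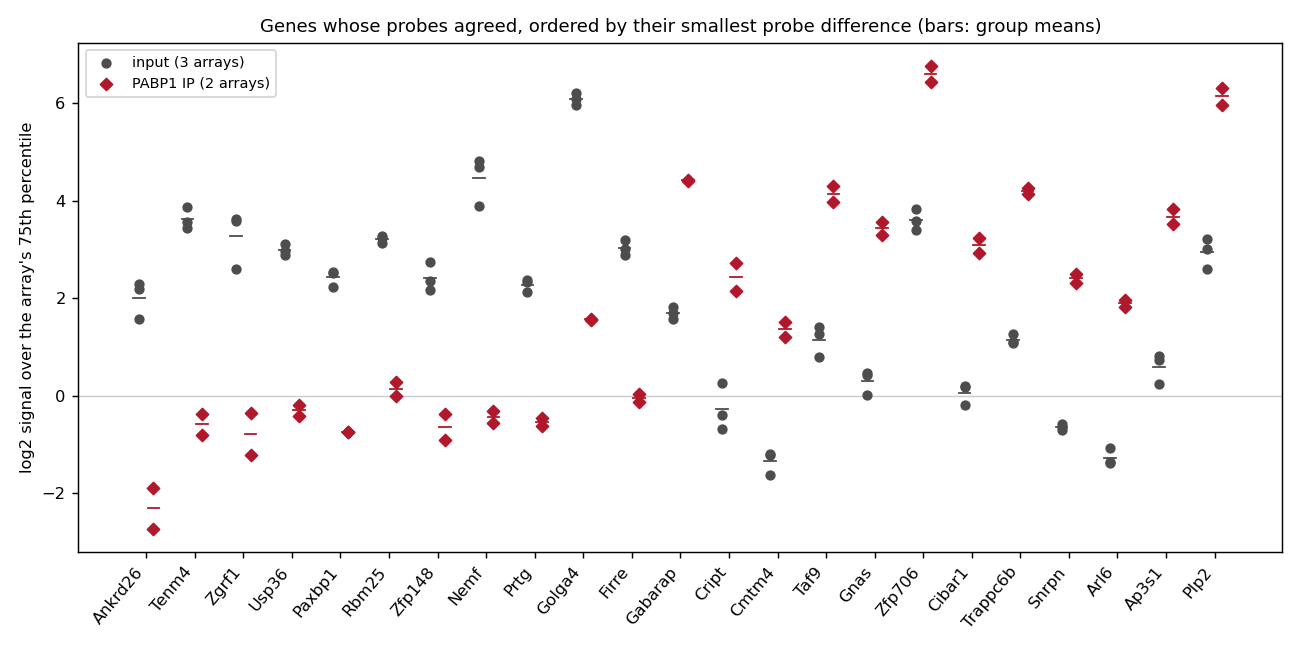
Level on each array, in log2 units relative to the 75th percentile of that array, for the 23 named genes whose probes all passed in 1 direction, with inputs as grey circles, PABP1 IPs as red diamonds and bars at the group means. Genes are ordered by the smallest difference among their probes, from Ankrd26 (−4.32) on the left to Plp2 (3.20) on the right. Inputs and PABP1 IPs do not overlap in any of these genes, which were chosen for passing with every probe.

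Messages for mitochondrial proteins encoded in the nucleus were recovered above most others. Among the subunits of respiratory complex I, which passes electrons from NADH to ubiquinone, 27 of 34 tested members were higher and 2 lower, against 34.3% and 25.3% of all genes, with a median of 1.41 (1.44 within slide 1 and 1.39 within slide 2). Ndufs8, an iron-sulfur subunit, had levels of 1.36, 1.41 and 2.31 in the inputs and 3.78 and 4.50 in the PABP1 IPs, a difference of 2.45 ± 0.40 (adjusted p = 0.00155). Ndufv2, a flavoprotein subunit, was higher by 2.28. The lower ones were Ndufs1 (−0.81), the largest iron-sulfur subunit, and Ndufv1 (−0.45). For complexes II to V, 38 of 47 tested members were higher and 0 lower (0 also at an unadjusted p under 0.05 by limma), with a median of 1.27 (1.31 within slide 1 and 1.20 within slide 2), led by the ATP synthase subunit Atp5l (2.60) and the cytochrome c oxidase subunit Cox6b1 (2.56). The large catalytic subunit Sdha of complex II was at −0.18 and the core protein Uqcrc1 of complex III at −0.33, neither of which passed.

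The protein import machinery of mitochondria and their ribosomes followed the same course. Among import factors 20 of 25 tested members were higher and 0 lower (0 also unadjusted), with a median of 1.68 (1.72 within slide 1 and 1.70 within slide 2). Timm8b, a small chaperone of the space between the membranes, had levels of 5.89, 5.71 and 5.41 in the inputs and 8.69 and 8.36 in the PABP1 IPs, a difference of 2.86 ± 0.18 (adjusted p = 2.91e-05). Tomm20, a receptor on the outer membrane, was higher by 2.80, and the motor-anchoring subunit Timm44 was at −0.56 and did not pass. Among mitochondrial ribosomal proteins 63 of 79 tested members were higher and 0 lower (0 also unadjusted), with a median of 1.23 (1.28 within slide 1 and 1.23 within slide 2), Mrps21 (2.55) and Mrpl30 (2.55) at the top and Dap3 (−0.24, not passing) at the bottom. All 79 of these were measured on all 5 arrays, so none owed its place to the PABP1 IP alone.

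Apart from the import factors, these classes lay below the median of all genes in the GFP IP. The median difference of the GFP IP from input was −1.11 for complex I, −1.11 for complexes II to V, −0.83 for mitochondrial ribosomal proteins and −0.27 for import factors, beside −0.52 for all genes. In the direct comparison 32 of 34 complex I genes, 45 of 47 genes of complexes II to V, 74 of 79 mitochondrial ribosomal genes and 21 of 25 import genes were higher in the PABP1 IP, against 47.6% of all genes.

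Cytosolic ribosomal protein messages, which carry a pyrimidine tract at the 5′ end and are short and abundant, stood near the median of all genes. Among them 29 of 79 tested members were higher and 0 lower (0 also unadjusted), with a median of 0.43. The median was 0.77 within slide 1 and 0.28 within slide 2, so the gap between the slides was larger than the distance from the median of all genes. Rpl29 had levels of 7.70, 7.62 and 6.99 in the inputs and 10.59 and 9.52 in the PABP1 IPs, a difference of 2.62 ± 0.35 (adjusted p = 5.79e-04), and Rpl4 was higher by 2.58. Rps2 (−0.64) and Rpl37a (−0.64) were lowest and did not pass. Ribosomal protein genes have many processed pseudogenes, so single values are uncertain. The class was at −1.10 from input in the GFP IP, and 56 of 79 were higher in the PABP1 IP than there, against 47.6% of all genes.

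Translation factors and aminoacyl-tRNA synthetases spread widely. Among initiation and elongation factors 25 of 57 tested members were higher and 10 lower, with a median of 0.36 (0.36 within slide 1 and 0.48 within slide 2). Eef1e1, a small scaffold of the multi-synthetase complex, had levels of 2.52, 2.36 and 1.97 in the inputs and 5.41 and 5.13 in the PABP1 IPs, a difference of 2.99 ± 0.19 (adjusted p = 3.07e-05). Eif5b, the large GTPase that joins the ribosomal subunits, stood at 4.66, 4.63 and 4.34 in the inputs and −0.26 and −0.04 in the PABP1 IPs, a difference of −4.70 ± 0.38 (adjusted p = 6.64e-05), and Eif3c, a core subunit of eIF3, was lower by 1.61. Other probes of Eif5b included values of −1.24 and −5.74. Among the synthetases 8 of 34 tested members were higher and 14 lower, with a median of −0.28 (−0.33 within slide 1 and −0.39 within slide 2), a place below the median of all genes that turned with normexp and with no filter on dim probes. The phenylalanyl synthetase subunit Farsb was higher by 1.95, and the mitochondrial leucyl synthetase Lars2 (−2.16) and the alanyl synthetase Aars (−2.05) were lower. Against the GFP IP, 20 of the 34 synthetase genes were higher and 2 lower, beside 47.6% and 23.6% of all genes.

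In splicing, most ring proteins were higher, while spliceosome and SR proteins lay on both sides of 0. Of Sm and LSm proteins, the small ring-forming partners of small nuclear RNAs and of decaying mRNA, 18 of 20 were higher and 1 lower, with a median of 1.80 (1.91 within slide 1 and 1.77 within slide 2), the highest of the 53 classes. Lsm1, of the cytoplasmic ring that binds deadenylated mRNA, had levels of 3.09, 2.97 and 2.65 in the inputs and 5.83 and 5.68 in the PABP1 IPs, a difference of 2.85 ± 0.17 (adjusted p = 2.49e-05). Lsm5, shared by both LSm rings, was higher by 2.38. The lower one was Lsm14b, at −0.77, whose second probe stood at 0.20. Sm and LSm messages were also high in the GFP IP, at 0.61 from input, beside −0.52 for all genes. Compared with it, 15 of 20 were higher and 1 lower in the PABP1 IP, beside 47.6% and 23.6% of all genes. Among spliceosome and SR proteins 9 of 45 tested members were higher and 16 lower, with a median of −0.28 (−0.24 within slide 1 and −0.24 within slide 2), which moved to the other side of the median of all genes with no filter on dim probes. The SF3b subunit Sf3b5 was higher by 1.66 and the SF3b subunit Sf3b3 lower by 3.35, with levels of 3.02, 3.46 and 3.42 in the inputs and 0 and −0.10 in the PABP1 IPs.

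Among motor proteins, light chains were mostly higher and motor chains mostly lower. Of dynein light chains, small cargo adaptors of the microtubule motor, 5 of 7 were higher, with a median of 1.61 (1.81 within slide 1 and 1.67 within slide 2). Dynll1 (2.61) and Dynlrb1 (2.35) led, followed by Dynll2 (1.61), Dynlt1b (1.53) and, named after its value was seen, Dynlt3 (1.83), which entered through the PABP1 IPs alone. Dynlt1, also named after its value was seen, was lower at −2.41 with a second probe at 0.43. Of kinesins, myosins and dynein heavy chains, the large motors, 41 of 69 were lower and 6 higher, with a median of −0.98 (−1.05 within slide 1 and −0.93 within slide 2). Compared with the GFP IP, 16 of the 69 were higher and 21 lower, beside 47.6% and 23.6% of all genes. Of the 7 light chains 5 were higher than there and 0 lower. Kif5b, the heavy chain of conventional kinesin, had levels of 4.74, 4.83 and 4.63 in the inputs and 1.79 and 1.81 in the PABP1 IPs, a difference of −2.93 ± 0.21 (adjusted p = 4.46e-05), and the mitotic kinesin Kif14 was lower by 2.90.

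Transcription and nuclear pore complexes held both extremes. Among RNA polymerase II subunits and general factors 25 of 43 tested members were higher and 11 lower, with a median of 0.97 (0.94 within slide 1 and 0.89 within slide 2). They ran from Taf9 (2.98) and Polr2h (2.31) to Taf15 (−1.70) and Taf7 (−2.15), whose second probe stood at 0.67. Taf1, the largest TFIID subunit, named after its value was seen, stood at 1.20, 1.41 and 1.50 in the inputs and −4.13 and −3.19 in the PABP1 IPs, was well above background on 1 PABP1 IP and was the lowest of the tested members. Among Mediator subunits 12 of 29 tested members were higher and 7 lower, with a median of 0.50, from Med30 (3.06) and Med8 (2.58) to Med1 (−2.26) and Med13l (−2.28), a probe of Med1 not measured on all 5 arrays lying above 0. Among nucleoporins 9 of 29 tested members were higher and 12 lower, with a median of −0.15. Nup37, a small subunit of the pore's outer ring, had levels of 0.84, 1.11 and 1.18 in the inputs and 3.81 and 3.71 in the PABP1 IPs, a difference of 2.71 ± 0.14 (adjusted p = 1.93e-05), and Nup43 was higher by 2.20. Tpr, the coiled coil of the pore basket, stood at 4.003, 4.14 and 3.82 in the inputs and −2.14 and −1.70 in the PABP1 IPs, a difference of −5.91 ± 0.32 (adjusted p = 1.95e-05), and Ranbp2, a giant protein of the pore's filaments, was lower by 2.35. Another probe of Tpr stood at −2.48.

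Of importins and exportins, the carriers through the pore, 17 of 22 were lower and 0 higher (0 also at an unadjusted p under 0.05 by limma), with a median of −1.14 (−1.15 within slide 1 and −0.97 within slide 2). Ipo7 was lower by 1.78 and Kpna6 by 1.76. In the direct comparison 14 of them were lower than in the GFP IP, against 23.6% of all genes.

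Messages for chromosome structure, chromatin remodelling and histone methylation were mostly lower. Of cohesin and condensin genes, which hold and fold chromosomes, 16 of 19 were lower and 0 higher (0 also unadjusted), with a median of −1.51 (−1.68 within slide 1 and −1.39 within slide 2). Smc2, the ATPase of condensin, had levels of 2.17, 2.66 and 2.48 in the inputs and −2.86 and −2.64 in the PABP1 IPs, a difference of −5.18 ± 0.28 (adjusted p = 1.95e-05), and Smc5 was lower by 2.55. Rad21 (−0.30) and Ncaph (−0.18) did not pass. Of the ATP-dependent remodellers 20 of 30 were lower and 3 higher, with a median of −1.50 (−1.52 within slide 1 and −1.42 within slide 2). The BAF ATPase Smarca4 stood at 7.84, 7.66 and 7.38 in the inputs and 4.22 and 3.52 in the PABP1 IPs, a difference of −3.76 ± 0.24 (adjusted p = 2.90e-05), and Chd7 was lower by 3.62. Another probe of Smarca4 stood at −1.73. The higher ones were the accessory subunits Ino80c (1.91), Smarcd1 (0.95) and, named after its value was seen, Ino80b (0.88). Of the histone methyltransferases and demethylases 25 of 38 were lower, with a median of −1.13 (−1.15 within slide 1 and −1.01 within slide 2). Kmt2c (−4.61, with another probe at −2.30) and Kmt2a (−2.88), large writers of histone H3 lysine methylation, were lowest. Suv39h2, named after its value was seen, was the one that was higher (1.96) and entered through the PABP1 IPs alone. The GFP IP was at −0.065 from input for this class. Of its 38 genes 27 were lower in the PABP1 IP than in the GFP IP, against 23.6% of all genes.

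Centrosome and centromere proteins differed as classes. Among centrosome genes 3 of 36 tested members were higher and 21 lower, with a median of −1.23 (−1.31 within slide 1 and −1.36 within slide 2). Pcm1, the scaffold of centriolar satellites, had levels of 1.35, 1.84 and 1.86 in the inputs and −3.28 and −3.65 in the PABP1 IPs, a difference of −5.15 ± 0.23 (adjusted p = 1.69e-05), and Pcnt, a large scaffold around the centrioles, was lower by 2.60. The 3 higher ones were Cep97 (1.98), whose second probe stood at −1.96, Cep19 (1.09) and, named after its value was seen, Cep95 (0.86), which entered through the PABP1 IPs alone. Among centromere and kinetochore genes 16 of 29 tested members were higher and 6 lower, with a median of 0.64 (0.66 within slide 1 and 0.65 within slide 2). Of those measured on all 5 arrays, Mis18a (2.52) and Cenpx (2.15) were highest and Cenpf (−3.28) and Cenpe (−3.01) lowest. Beyond them lay, named after their values were seen, Cenpa (2.71), which entered through the PABP1 IPs alone, and the kinetochore scaffold Knl1, on no PABP1 IP well above background and at least 7.69-fold lower. DNA replication genes had a median of 0.05, from the smallest subunit of replication protein A, Rpa3, at 3.53, to the DNA ligase Lig1 at −1.57.

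RNA helicases were mostly lower, and zinc finger genes more often lower than higher. Of DEAD and DEAH box helicases 29 of 49 were lower and 7 higher, with a median of −0.76 (−0.76 within slide 1 and −0.84 within slide 2). Compared with the GFP IP, 17 of the 49 were higher and 18 lower, beside 47.6% and 23.6% of all genes. Ddx46, a spliceosomal helicase, was lower by 4.74 and Ddx6, a translational repressor in P-bodies, by 2.86, with levels of 0.49, 0.68 and 0.71 in the inputs and −2.24 and −2.22 in the PABP1 IPs. Another probe of Ddx46 stood at −1.35. Of the genes named Zfp 108 of 241 were lower and 35 higher, with a median of −0.49 (−0.47 within slide 1 and −0.43 within slide 2). Zfp773 (−4.73) and Zfp644 (−3.83) were lowest and Zfp706 (2.99) highest. Nuclear RNA-binding hnRNP genes had a median of −0.26 (−0.23 within slide 1 and −0.20 within slide 2), which turned against that of all genes with normexp and with no filter, from Hnrnph3 (1.52) to Hnrnpu (−1.44).

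In the ubiquitin system, conjugating enzymes were high and USP deubiquitinases low. Of the E2 enzymes, compact proteins that carry ubiquitin, 25 of 31 were higher and 1 lower, with a median of 1.60 (1.56 within slide 1 and 1.59 within slide 2). Ube2a had levels of 2.69, 2.56 and 2.39 in the inputs and 5.37 and 5.09 in the PABP1 IPs, a difference of 2.68 ± 0.15 (adjusted p = 1.95e-05), and Ube2j2, of the endoplasmic reticulum, was higher by 2.59. The lower one was Ube2o, at −2.06 ± 0.13 (adjusted p = 2.78e-05), with its second probe at −3.89. Of the USP enzymes, which remove ubiquitin, 28 of 44 were lower and 6 higher, with a median of −0.92 (−0.97 within slide 1 and −0.75 within slide 2). Usp42 (−4.14) and Usp36 (−3.29) were lowest and Usp21 (2.59) highest. E2 messages were also high in the GFP IP, at 0.75 from input. Compared with it, 14 of 31 were higher and 6 lower in the PABP1 IP, near the 47.6% and 23.6% of all genes. The median difference between the IPs was 0.46, beside 0.68 for all genes.

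The proteasome and the COP9 signalosome lay in between. Among proteasome subunits 23 of 41 tested members were higher and 6 lower, with a median of 0.68 (0.64 within slide 1 and 0.74 within slide 2), and Psma3 (2.60) and Psmd8 (2.45) were highest. Psmd1, a subunit of the regulatory particle, was lower by 2.19, and the activator Psme4 by 1.95. Against the GFP IP, 34 of 41 proteasome genes were higher, beside 47.6% of all genes. Among COP9 genes 5 of 9 tested members were higher and 0 lower (1 lower at an unadjusted p under 0.05), with a median of 0.65 with the small subunits Cops9 (2.08) and Cops8 (1.76) at the top, followed by Cops7a, Cops3 and Cops7b, named after their values were seen. Of the folding chaperone TRiC and its partner prefoldin 9 of 14 were higher, with a median of 0.85 (0.96 within slide 1 and 0.94 within slide 2), from the prefoldin subunits Vbp1 (1.68) and Pfdn4 (1.61) to the TRiC subunits Cct7 (−0.53) and Cct5 (−0.53), which were lower.

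**Figure D4:**
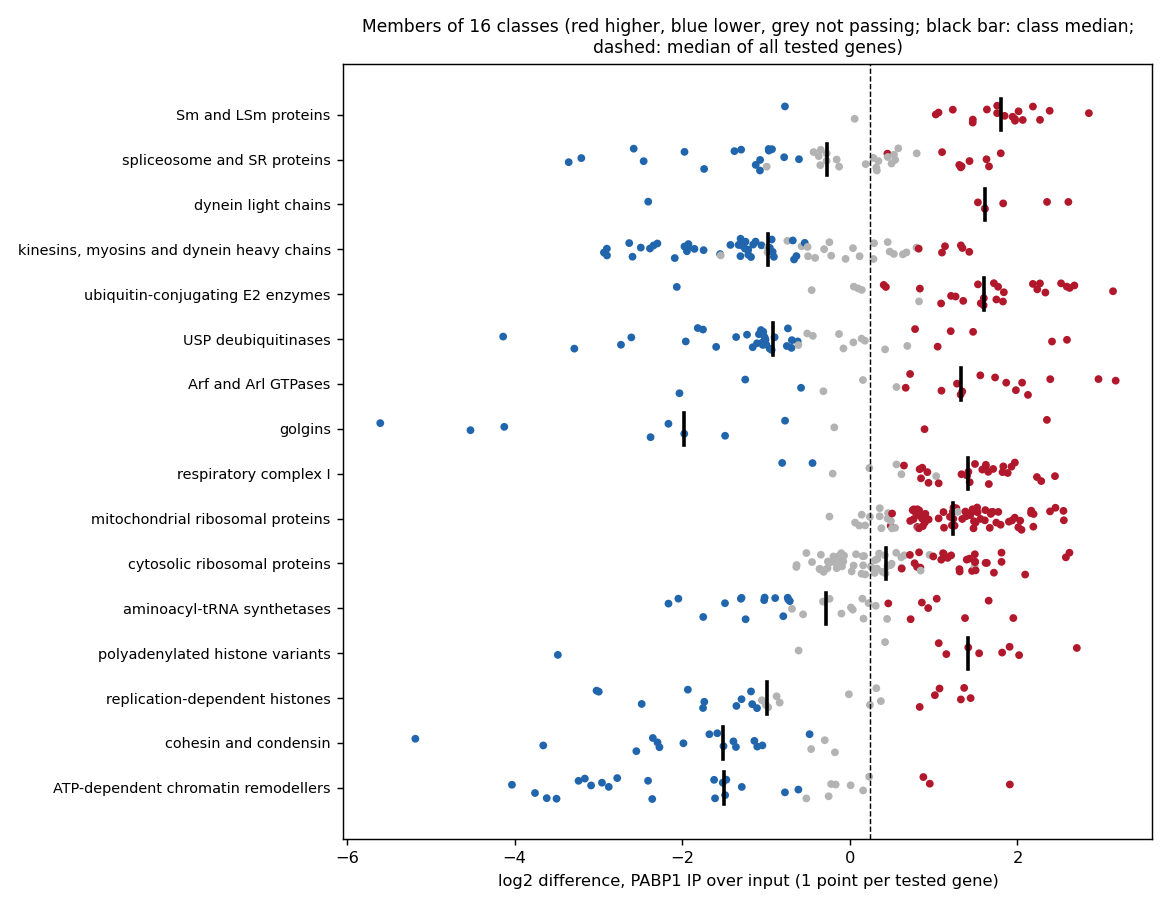
Log2 difference of PABP1 IP over input for each tested gene of 16 classes, with genes higher in red, lower in blue and not passing in grey, class medians as black bars and the median of all tested genes as a dashed line. Conjugating E2 enzymes gather at 1.60 and USP deubiquitinases at −0.92, and golgins reach −5.60.

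Small GTPases of membrane traffic were high and the golgin tethers low. Among Arf and Arl GTPases 15 of 21 tested members were higher and 3 lower, with a median of 1.32 (1.26 within slide 1 and 1.26 within slide 2), led by Arl6 (3.17) and by Arf4 (2.97), with levels of 1.41, 1.36 and 0.93 in the inputs and 4.30 and 4.10 in the PABP1 IPs. The 3 lower ones were Arl13b (−2.03), Arl5b (−1.25) and, named after its value was seen, Arf3 (−0.58), each with another probe above 0. Arf and Arl messages were also high in the GFP IP, at 0.69 from input. Compared with it, 8 of 21 were higher and 5 lower in the PABP1 IP, beside 47.6% and 23.6% of all genes. Among Rab GTPases 37 of 51 tested members were higher and 2 lower, with a median of 0.96 (0.93 within slide 1 and 1.05 within slide 2), led by Rab28 (2.53) and Rab4a (2.50). The 2 lower Rab genes, Rab22a and Rab6b, stood at −2.001 and −0.75, and each had another probe above 0. Of golgins, the coiled-coil tethers of the Golgi, 8 of 11 were lower, with a median of −1.98 (−2.13 within slide 1 and −1.84 within slide 2), the lowest of the 53 classes. Golgb1, the giant golgin, stood at 2.17, 2.77 and 1.95 in the inputs and −2.68 and −3.93 in the PABP1 IPs, a difference of −5.60 ± 0.64 (adjusted p = 2.70e-04). Another probe of Golgb1 stood at −2.28. The 2 higher golgin genes were Golga7 (2.35), a small partner of a palmitoyltransferase rather than a tether, and Gorab (0.89), named after its value was seen, which entered through the PABP1 IPs alone. Compared with the GFP IP, 6 of the 11 golgin genes were lower and 0 higher, beside 23.6% and 47.6% of all genes. Of COPI and COPII coat genes 11 of 20 were lower and 5 higher, with a median of −0.77 (−0.73 within slide 1 and −0.74 within slide 2), down to the cargo adaptor Sec24b at −1.42. The higher ones were Copz2 (2.56), the GTPase Sar1b (1.83) and, named after their values were seen, Sec13 (1.43), Copz1 (1.35) and Sec24d (0.40). Compared with the GFP IP, 6 of the 20 coat genes were higher and 7 lower, beside 47.6% and 23.6% of all genes.

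Messages for membrane and secreted proteins varied by class. Among genes named Tmem 91 of 159 tested members were higher and 20 lower, with a median of 0.85 (0.83 within slide 1 and 0.84 within slide 2), and of the 137 measured on all 5 arrays 75 were higher, with a median of 0.79. Among solute carriers 65 of 246 tested members were higher and 62 lower, with a median of 0.033. Among genes of endoplasmic reticulum translocation 13 of 23 tested members were higher and 2 lower, with a median of 0.81 (0.71 within slide 1 and 0.84 within slide 2), from the signal recognition particle subunit Srp9 (2.58, with a probe not measured on all 5 arrays below 0) to the lower ones, the channel subunit Sec61a1 (−0.80) and Sec63 (−1.38). Of vacuolar ATPase subunits 13 of 21 were higher, with a median of 0.85 (0.92 within slide 1 and 0.76 within slide 2), from Atp6v0e (2.82) down to the subunit Atp6v0a4 (−2.81). Lysosomal genes had a median of −0.07, between Npc2 (1.20), a small soluble cholesterol carrier, and the multipass Npc1 (−1.25) of the same pathway, apart from Grn, at −5.89, whose probes ranged from −0.61 to −5.89.

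Among metabolic genes, redox enzymes stood out. Of thiol redox and glutathione genes 39 of 46 were higher and 2 lower, with a median of 1.50 (1.51 within slide 1 and 1.46 within slide 2). Gpx1, a peroxidase that uses glutathione, had levels of 6.90, 6.75 and 6.33 in the inputs and 9.102 and 8.88 in the PABP1 IPs, a difference of 2.33 ± 0.20 (adjusted p = 7.63e-05), and the glutaredoxin Glrx was higher by 2.30. The 2 lower ones were Gclc (−0.82), the catalytic subunit of glutathione synthesis, and Txnrd3 (−0.84). Against the GFP IP 41 of 46 were higher, beside 47.6% of all genes. Glycolysis genes had a median of 0.15, from Eno1 at 1.95 to Hk2 at −2.02 and Pfkp at −2.15. Classes near the median of all genes also included chaperones of the HSP and DNAJ families (0.29), RING finger genes named Rnf (0.31), tubulins and actins (0.24) and Polycomb genes (0.041). Cholesterol synthesis genes had a median of −0.12, from Nsdhl (1.71) to Acat2 (−1.19).

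The genes of the poly(A) machinery itself did not move as a group. Among poly(A) binding proteins and their partners 7 of 20 tested members were higher and 6 lower, with a median of 0.30 (0.42 within slide 1 and 0.31 within slide 2). Pabpc1, which encodes PABP1, had levels of 8.55, 8.83 and 7.62 in the inputs and 9.32 and 7.79 in the PABP1 IPs, a difference of 0.22 ± 0.68 (adjusted p = 0.799), with both groups overlapping. Pabpc4 (0.41) did not pass. Paip2, a small inhibitor that takes PABP1 off the tail, stood at 4.15, 4.02 and 3.87 in the inputs and 6.10 and 6.10 in the PABP1 IPs, a difference of 2.09 ± 0.13 (adjusted p = 2.79e-05), and Paip2b (1.03) and the activator Paip1 (1.08) were higher too. Mkrn1, a ubiquitin ligase that binds PABP1, was higher by 2.76, though its probes ranged from 0.31 to 2.76. The La-related proteins Larp4b (−1.998) and Larp1 (−1.67), which contact PABP1, and the scaffold Eif4g3 (−1.51) were lower, and Eif4g1 was at −0.23 and did not pass. The translation regulators Tob1 and Tob2, which link PABP1 to the deadenylases, were at 0.80 and −0.66. The nuclear poly(A) binding proteins Zc3h14 (1.18) and Pabpn1 (0.51) were higher, the latter below 0 with the mean of its probes and with quantile normalization, and the deubiquitinase Usp10 (−0.74) and the ataxin Atxn2 (−0.45) were lower. Pabpc2 (1.44), Gspt1 (0.38), Atxn2l (−0.021) and Larp1b (−0.31) did not pass. Against the GFP IP 11 of this list were lower and 5 higher, beside 23.6% and 47.6% of all genes.

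Of the CCR4-NOT and PAN deadenylase genes 9 of 14 were lower and 4 higher, with a median of −0.77 (−0.87 within slide 1 and −0.64 within slide 2). Cnot7, a compact catalytic subunit, had levels of −1.71, −1.58 and −1.61 in the inputs and 1.58 and 1.51 in the PABP1 IPs, a difference of 3.18 ± 0.11 (adjusted p = 1.40e-05). Its catalytic partner Cnot6l (−2.17) and the subunit Cnot3 (−2.25) were the lowest. The other higher ones were Cnot11 (1.31) and, named after their values were seen, Cnot9 (1.15) and the paralog of Cnot7, Cnot8 (0.99). Compared with the GFP IP, 4 of the 14 deadenylase genes were higher and 4 lower, with a median of 0.17, beside 0.68 for all genes. Of the RNA exosome, which degrades from the 3′ end, 6 of 11 were higher, led by the ring subunit Exosc8 (1.79), while its nucleases Dis3 (−1.35) and Exosc10 (−1.20) were lower.

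Cell identity genes were checked in the same arrays. All 20 ES cell markers were well above background on every input, and so were 17 of 20 feeder fibroblast markers, while 7 of 11 primitive endoderm markers, Gata4, Gata6 and Sox17 among them, were not. The summed linear level of the feeder markers, in units of the array's 75th percentile, was 280 to 382 in the inputs and 411 to 412 in the PABP1 IPs. The feeder list, in which 16 of 32 tested members were higher and 3 lower, had a median of 0.75 (0.59 within slide 1 and 0.94 within slide 2). Its lower members were Pdgfrb (−1.36), Cald1 (−1.21) and, named after its value was seen, Fn1 (−0.97). The part of feeder RNA in the other results was not tested, and in such bulk lysates fewer cells of a type and less RNA per cell cannot be told apart. Among pluripotency genes 8 of 25 tested members were higher and 8 lower, with a median of −0.16. Pou5f1, the core pluripotency factor, had levels of 5.95, 6.12 and 6.39 in the inputs and 7.44 and 7.64 in the PABP1 IPs, a difference of 1.39 ± 0.25 (adjusted p = 0.00237), and Nr5a2 (−2.67) and Tfcp2l1 (−2.59) were lowest. The DNA demethylases Tet1 (−2.06) and Tet2 (−2.19) were lower, as was Dazl (−1.70), the germ cell RNA-binding protein after which the line is named. In the GFP IP Dazl was 3.81 above input (adjusted p = 2.17e-05), and the PABP1 IP stood at −5.52 (adjusted p = 9.16e-06) from the GFP IP.

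Recovery fell with the genomic span of the gene up to 300 kb, from start to end with introns, as RefSeq gives it for assembly GRCm38.p6. Spans were at hand for 12968 of the 14682 tested genes (88.3%). The median difference was 0.91 for 1038 genes under 3 kb, 0.70 for 2686 genes of 3 to 10 kb and 0.31 for 4301 genes of 10 to 30 kb. It was −0.27 for 3512 genes of 30 to 100 kb, −0.47 for 1209 genes of 100 to 300 kb and −0.31 for 222 genes over 300 kb. In the shortest bin 51.4% of genes were higher and 6.17% lower, and between 100 and 300 kb 17.9% were higher and 46.2% lower. Across these genes, which are not independent replicates and share the arrays, Pearson's r with log10 span was −0.33 and Spearman's rho −0.36. Against the mean level of the 5 arrays the values were 0.062 and 0.029. In the GFP IP the order of the bins was the reverse from the shortest to the fifth, at −0.84 under 3 kb and −0.20 at 100 to 300 kb. Span includes introns, so it stands for neither the length of the message nor that of the protein.

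**Figure D5:**
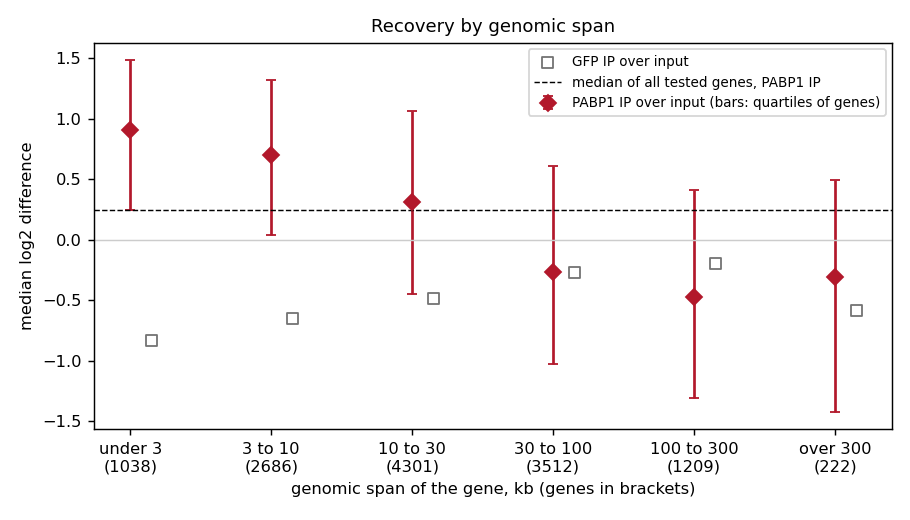
Median log2 difference from input by genomic span of the gene in kb, for the PABP1 IP (red diamonds, bars from the lower to the upper quartile of genes) and the GFP IP (open squares), with the median of all tested genes as a dashed line. The PABP1 IP falls from 0.91 under 3 kb to −0.47 at 100 to 300 kb, and the quartile bars of neighbouring bins overlap.

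Set against genes of the same span bin, most class medians with a direction came closer to 0. From their distance to the median of all genes to their distance to the medians of those bins, Sm and LSm proteins went from 1.56 to 1.26, thiol redox genes from 1.26 to 1.06, complex I from 1.16 to 0.81, complexes II to V from 1.03 to 0.59 and mitochondrial ribosomal proteins from 0.99 to 0.58. E2 enzymes went from 1.35 to 1.48. On the low side, golgins went from −2.22 to −1.71, cohesin and condensin from −1.75 to −1.27, remodellers from −1.74 to −1.23, importins and exportins from −1.38 to −0.81 and USP enzymes from −1.16 to −0.62. Deadenylase genes went from −1.01 to −0.48 and coat genes from −1.01 to −0.52, while Zfp genes moved little, from −0.74 to −0.71. Replication-dependent histones moved away, from −1.23 to −1.89. The proteasome (0.19) and the RNA exosome (0.067) came close to genes of their span, and cytosolic ribosomal proteins fell below theirs, at −0.31. The part of message length in the class differences was not tested.

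Several high classes held genes that entered the test through the PABP1 IPs alone, which were high by selection. Over the members measured on all 5 arrays, 18 of 23 import factors, 22 of 28 E2 enzymes and 34 of 41 thiol redox genes were higher, with medians of 1.66, 1.55 and 1.49. The same counts were 34 of 43 Rab genes, 13 of 19 Arf and Arl genes and 23 of 39 polymerase II and general factor genes, with medians of 0.94, 1.28 and 0.97. For dynein light chains they were 4 of 4, and for feeder markers 12 of 27. Some low classes held genes that entered through the inputs and not the PABP1 IPs, which were low by selection. Of the members measured on all 5 arrays, 20 of 31 histone methyltransferases and demethylases, 17 of 27 centrosome genes and 35 of 51 motor chain genes were lower. Their medians were −0.93, −1.23 and −1.12. For cohesin and condensin the count was 14 of 17 (median −1.51), and for Zfp genes 94 of 197 (median −0.53). Over all genes measured on all 5 arrays 35.2% were higher and 27.2% lower, with a median of 0.16.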

How the data were processed

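Per the labels, 1 array was made for each sample. The deposited intensity values were made by the authors with Agilent Feature Extraction 9.1.3.1, per the file headers (protocol GE1-v5_95_Feb07, design 014868), which subtracted background and removed spatial trends, and they are rounded to 3 significant digits. Flags for outlier spots, saturation and signal well above background came with them, and no probe was flagged as saturated on any array.

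From these, log2 intensity minus each array's 75th percentile over 43379 probe spots was computed, and spots of a probe were averaged without outliers. The probe with the highest mean stood for its gene, and a gene was tested where all arrays of 1 or more groups flagged that probe as well above background. limma 3.58.1 (R 4.3.3) was fitted to all 8 arrays, with 5 residual degrees of freedom, and was tested on simulated data. A rank test of 2 against 3 arrays cannot give an exact two-sided p under 0.1 and was not used. A bound ("at least N-fold") sets the group mean in which a gene was measured against, per array, the higher of the lowest signal among probes well above background and the gene's own.

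Members and lists were chosen with earlier results of these data known. Genes named in the text are the 12 highest and 12 lowest by agreement of probes, the 2 highest and 2 lowest members of each class measured on all 5 arrays, the replication-dependent histones, the poly(A) partners, Dazl, Tet1, Tet2 and Malat1, and others are named as chosen after their values were seen. Gene names, RNA types and spans come from a RefSeq table of assembly GRCm38.p6, which matched 10721 tested genes by accession, 1464 by symbol and 783 by synonym, and 1714 kept the array's name. Protein sequences were not used here, so protein length was not set against recovery. The promoter sequences at hand covered 70.6% of tested genes, under the 80% needed, so a check of pyrimidine runs at transcript starts is void. The authors' table of group means was not used here.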

Additional observations from a re-analysis of the deposited data

How the results depend on the processing

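Of 20 settings tried beside the main one, normexp was the one that moved a count of calls by over 1.5 times. With it, 1643 genes were higher and 637 lower than in the input, and 3102 were higher and 1093 lower than in the GFP IP. Leaving out 1 array at a time gave 4026 to 5034 higher and 3096 to 3750 lower genes against the input, and 5520 to 7205 higher and 2973 to 3533 lower genes against the GFP IP. With slide as a block 6353 were higher and 4494 lower than in the input, within slide 1 the counts were 5166 and 3544, and within slide 2 they were 4583 and 2987. Of the 34 classes with a direction, 30 stayed on the same side of the median of all genes in every setting. Whether they stayed more than 0.5 away from it was not counted. Relative to the median of all genes, aminoacyl-tRNA synthetases moved to 0.0083 with normexp and 0.044 with no filter on dim probes, hnRNP proteins to 0.075 and 0.061, and spliceosome and SR proteins to 0.048 with no filter. The nuclear and snoRNA host RNAs moved to 0.33 where detection on all 8 arrays was required. This drops members with no probe detected on all of them, such as Malat1, which was detected in the GFP IPs and not the PABP1 IPs. With no filter, genes of 30 to 100 kb lay at 0.053 and those over 300 kb at 0.012. Of 232 genes named, 123 kept direction and call in every setting. With the mean of all probes, Arf3 turned to 0.25, Arl5b to 0.49, Cep97 to −0.064, Copz2 to −0.034, Gspt1 to −0.72, Pabpn1 to −0.31 and Snhg5 to −0.83, where probes of 1 gene disagree. Pabpn1 was at −0.077 with quantile normalization, Cep95 at −0.022 with normexp, and Snhg11 at 0.18 where detection on all 8 arrays was required, with another probe standing for it. The cause of the other changes was not tested.

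Same-numbered arrays of different groups deviated together where they shared a slide and apart where they did not (correlations from −0.74 to 0.62). Pairing by number cannot be told apart from the slide in this check, so whether the numbers pair the samples is not known. With the replicate number as a block, 4767 genes were higher and 3681 lower than in the input. The number of arrays, 2 PABP1 IPs, limits the precision of every value here.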

Other observations

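Outside the classes, long non-coding RNAs by RefSeq type were looked at. Among 218 tested long non-coding RNAs 92 were higher and 35 lower, but 76 entered the test through the PABP1 IPs alone, where they are high by selection. Of the 122 measured on all 5 arrays 53 were higher and 19 lower, with a median of 0.42, beside 0.15 for 10617 protein-coding genes measured in the same way, a difference that was not tested. Of 4 entries matched to snoRNAs 3 were lower, and the other one, measured on all 5 arrays, was at −0.25 and did not pass. The matched name is that of the annotation, and a probe may read the host transcript.

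Detection itself differed between the groups. In 154 genes all inputs and no PABP1 IP were well above background, and in 696 both PABP1 IPs and no input were. Named after their values were seen, the RNA of Gdap10 was at least 45.9-fold lower in the PABP1 IP, that of the kinase Rock1 at least 32.9-fold and that of the export factor Thoc2 at least 16.8-fold. In the other direction, Rad51c, a recombination protein, was at least 4.46-fold higher. Each of these 4 rests on 1 probe.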
